A study of Gallus gallus with 45 samples.

Results

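Cholesterol synthesis was followed in the jejunum of young broilers through 7 genes, which are HMGCS1, IDI1, SQLE, LSS, CYP51A1, DHCR7 and INSIG1. The genes were taken from a list that was chosen with earlier results of these data known. A probe was assigned to a gene when its RefSeq accession named it. Of the 43603 probes of the array other than controls, 14 belonged to 5 of the genes, with 3 probes for HMGCS1, 2 for SQLE, 3 for LSS, 2 for DHCR7 and 4 for INSIG1. IDI1 and CYP51A1 had no matched probe and were not analysed here. A filter on dim probes kept 25527 probes, among them 13 of the 14, and removed the second SQLE probe. The list was proposed as synthesis and uptake genes, but the 5 genes measured are 4 enzymes of synthesis and 1 regulator, and none takes up cholesterol.

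Jejunal tissue was taken from the genetically divergent broiler lines Y and X on days 0, 4 and 16, and 45 one-colour arrays were made, each from pooled RNA of 10 birds. Line Y was represented by 7, 7 and 8 pools on days 0, 4 and 16, and line X by 7, 8 and 8. The birds were fed without restriction, the labels name no treatment, and a pool hides the spread between its birds. For the day 0 pools of line Y the sample labels give the age as 0 days while their titles give 4 days, and these pools were analysed as day 0. The paper's supplement lists microbiota samples of line Y with the same pool numbers under age 0. The arrays of a group were on 1 slide of their own, so slide and group cannot be told apart, neither between lines nor between days, and p-values measure the spread between pools of a slide. The paper states that the lines were reared in separate pens, so pen and line cannot be told apart either.

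The vertebrate cell makes cholesterol from acetyl-CoA through mevalonate, isoprenoids, squalene and lanosterol. Transcription of most enzymes of this route is driven by the factor SREBP-2, which the cell activates when sterols in the membrane of the endoplasmic reticulum are scarce and holds back when they are plentiful, with INSIG proteins retaining it. A chick hatches with a remnant of yolk, which is rich in cholesterol and is used up in the first days, while plant matter holds little cholesterol. The comparison of days asks how the synthesis genes stood at hatch and at the later ages, and the comparison of lines asks whether Y and X differed on each day. Neither the yolk remnant nor cholesterol in tissue or feed was measured. The days also differ in age and in slide, so the part of the yolk in any change between days was not tested. Whole tissue was measured, so that fewer cells of a type and less RNA per cell cannot be told apart.

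All values are normalized log2 intensities, on which a difference of 1 is a doubling of the signal. Levels of different probes are not comparable, and only differences of a probe between groups are. Where a gene has several kept probes, the one with the highest mean over all arrays stands for the gene, and the others are given beside it. A probe was called when limma's moderated test, fitted to all 6 groups and adjusted over the 25527 probes by the Benjamini-Hochberg method, gave an adjusted p under 0.05 and the fold change exceeded 1.3. The smallest share of probes well above background on an array was 61.8%, and the largest was 81.8%. Before normalization the median intensity of the line Y arrays of day 0 lay between 197 and 262, while that of the other groups lay between 78 and 199. Arrays of a group correlated at 0.954 to 0.994. None of the member spots was saturated. A list of 15 enterocyte genes had 10 on the array, and their mean log2 intensity lay between 14.73 and 15.21 in all pools, with 54% of these spots saturated, so that changes in enterocyte share were hardly measurable by them.

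All 5 genes rose strongly between hatch and day 4 in both lines and stayed high at day 16. From day 0 to day 4 every one of the 13 probes was called higher in line Y, against 18.8% of all probes, and every one was called higher in line X, against 26.3% of all probes. The median difference over the 13 probes was 3.05 on the log2 scale in line Y and 2.52 in line X, while the median over all probes was -0.01 and 0.01. In 12 of the 13 probes in each line all pools of day 4 lay above all pools of day 0, the exception being the LSS probe A_87_P145243. The share of all probes with such a separation was not determined, so this number is a description only. The 9 probes that passed the filter on every array, those of day 0 included, were all called higher in both lines. This says nothing of the other member probes. The brightest dark corner spot reached 9.73 on 1 array of line X at day 4, so this filter also removed probes for being dim at day 4. The share of all probes called higher under this filter is not given here.

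**Figure D1:**
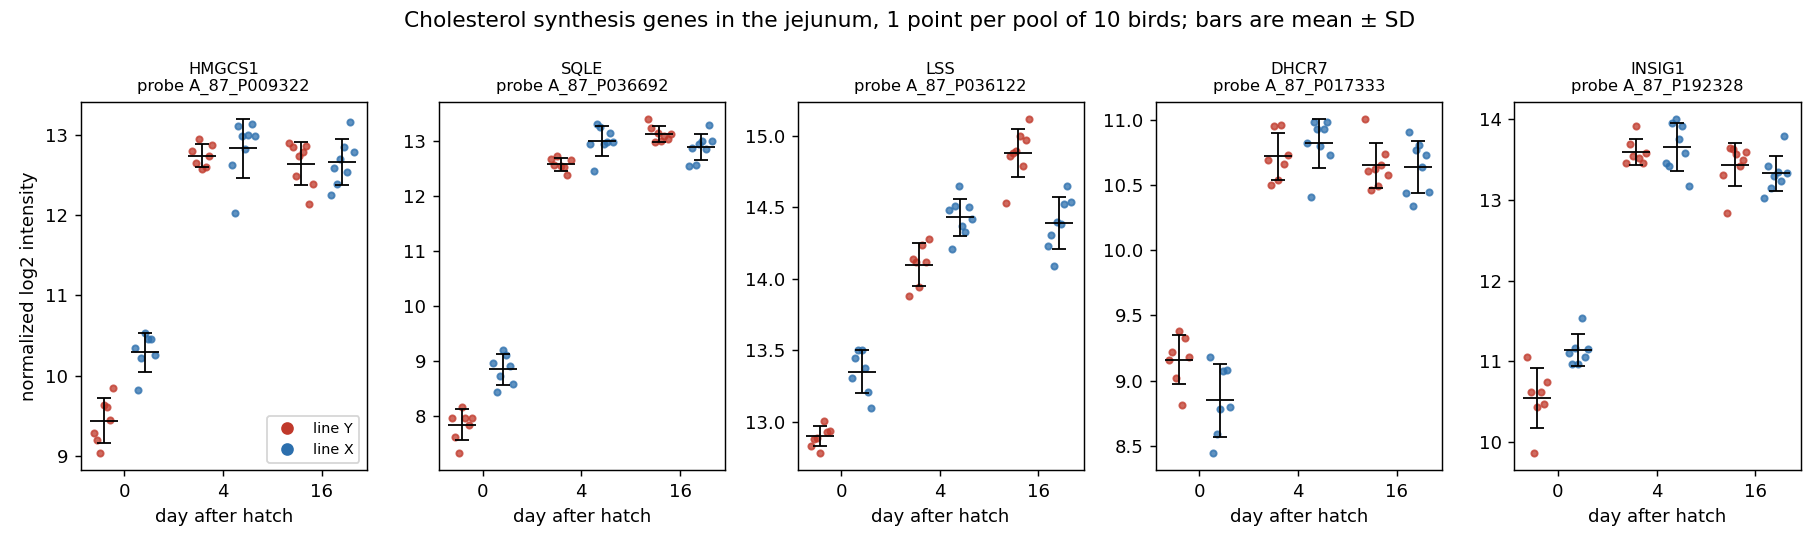
Normalized log2 intensity (vertical axis) of the representative probe of HMGCS1, SQLE, LSS, DHCR7 and INSIG1 in each pool on days 0, 4 and 16, with line Y in red left of line X in blue and the mean ± SD in black. In every panel the pools of day 0 lie below those of days 4 and 16, and for SQLE and LSS the line Y pools of day 0 lie below those of line X.

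HMGCS1 makes HMG-CoA, an early intermediate on the way to mevalonate. In line Y its probe A_87_P009322 had a lowest, median and highest pool of 9.03, 9.45 and 9.84 on day 0, of 12.57, 12.74 and 12.95 on day 4, and of 12.14, 12.76 and 12.90 on day 16. Line X had 9.82, 10.34 and 10.53 on day 0, 12.02, 12.98 and 13.13 on day 4, and 12.25, 12.65 and 13.16 on day 16. Pools of days 4 and 16 overlapped and stood well apart from those of day 0 in both lines. The rise to day 4 was 9.86-fold in line Y (log2 difference 3.30 ± 0.14 SE, n = 7 and 7 pools, adjusted p = 9.89e-23, limma) and 5.81-fold in line X (2.54 ± 0.14, n = 8 and 7, adjusted p = 1.93e-19, limma). The other HMGCS1 probes, A_87_P056866 and A_87_P253813, rose by 3.41 and 3.54 in line Y and by 3.27 and 3.81 in line X.

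SQLE, squalene epoxidase, adds oxygen to squalene in the first step that commits it to sterols, and it changed more than any other member. Its kept probe A_87_P036692 ran from 7.31 over a median of 7.95 to 8.16 in line Y at day 0, from 12.37 over 12.56 to 12.72 at day 4, and from 12.98 over 13.10 to 13.40 at day 16. In line X the lowest, median and highest pool were at 8.42, 8.90 and 9.20, then at 12.44, 12.97 and 13.30, and at day 16 at 12.53, 12.90 and 13.28. Line Y therefore started lower and rose in each interval, with no overlap between any of its 3 days, whereas the line X pools of days 4 and 16 overlapped. To day 4 the signal rose 26.9-fold in line Y (4.75 ± 0.12 SE, adjusted p = 8.05e-31, limma) and 17.8-fold in line X (4.15 ± 0.12, adjusted p = 2.78e-29, limma). Among the 25527 probes this was the rise of rank 12 in line Y and of rank 29 in line X.

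The second SQLE probe, A_87_P281198, was too dim for the filter, and it was well above background on 0 of 7 arrays at day 0 in line Y and on 0 of 7 in line X. At day 4 it was well above background on 5 of 7 arrays in line Y and 6 of 8 in line X, and at day 16 on 7 of 8 and 8 of 8. Set against a reference for day 0, its mean signal was 2.80-fold higher at day 4 and 3.04-fold higher at day 16 in line Y. In line X it was 3.34-fold and 4.01-fold higher. The reference is the mean, over the day 0 arrays of the line, of the higher of 2 values. These are the lowest signal well above background of any probe and the signal of the probe itself. In line Y the reference was 3.99, and at day 4 the lowest pool was at 5.16, yet not all arrays were well above background. The reference is therefore not the detection limit of this probe, and the folds are not lower bounds.

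LSS, lanosterol synthase, closes the epoxide of squalene into lanosterol, the first sterol. The pools of its probe A_87_P036122 had a lowest, median and highest value of 12.78, 12.89 and 13.01 in line Y at day 0, of 13.88, 14.12 and 14.28 at day 4 and of 14.53, 14.89 and 15.12 at day 16. In line X the values were 13.10, 13.38 and 13.50, then 14.21, 14.45 and 14.65, and at day 16 they were 14.09, 14.39 and 14.65. As with SQLE, the 3 days of line Y did not overlap, and days 4 and 16 of line X did. The rise to day 4 was the smallest of the 5 representative probes, 2.31-fold in line Y (1.21 ± 0.08 SE, adjusted p = 2.15e-16, limma) and 2.12-fold in line X (1.08 ± 0.08, adjusted p = 1.49e-15, limma). The LSS probe A_87_P284678 rose by 1.21 in line Y and 2.17 in line X, and the probe A_87_P145243, the most variable of the 13, rose by 1.02 and 1.42.

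DHCR7 reduces the double bond of 7-dehydrocholesterol in the last step to cholesterol, and it thereby competes for the precursor of vitamin D. Its probe A_87_P017333 had a lowest, median and highest pool of 8.81, 9.18 and 9.38 in line Y at day 0, of 10.50, 10.69 and 10.96 at day 4 and of 10.46, 10.62 and 11.01 at day 16. Line X had 8.44, 8.80 and 9.18 on day 0, followed by 10.41, 10.88 and 10.98 on day 4 and by 10.34, 10.69 and 10.91 on day 16. Days 4 and 16 overlapped in both lines and were apart from day 0. The signal rose 2.95-fold in line Y (1.56 ± 0.11 SE, adjusted p = 4.52e-16, limma) and 3.93-fold in line X (1.98 ± 0.11, adjusted p = 5.91e-20, limma), and the second probe, A_87_P083636, rose by 1.60 and 2.01.

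INSIG1 is a sterol-regulated brake of the pathway, which holds the SREBP escort protein in the endoplasmic reticulum and is itself a target of SREBP. In line Y the lowest, median and highest pool of its probe A_87_P192328 stood at 9.86, 10.62 and 11.06 on day 0, 13.46, 13.55 and 13.92 on day 4, and 12.84, 13.54 and 13.64 on day 16. In line X the values were 10.97, 11.10 and 11.54 on day 0, 13.18, 13.67 and 14.01 on day 4, and 13.03, 13.32 and 13.79 on day 16. The brake and the enzymes therefore rose over the same interval, 8.29-fold in line Y (3.05 ± 0.14 SE, adjusted p = 2.41e-22, limma) and 5.75-fold in line X (2.52 ± 0.13, adjusted p = 4.24e-20, limma). The other INSIG1 probes rose by 2.50 to 3.35 in line Y and by 2.35 to 3.05 in line X.

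**Figure D2:**
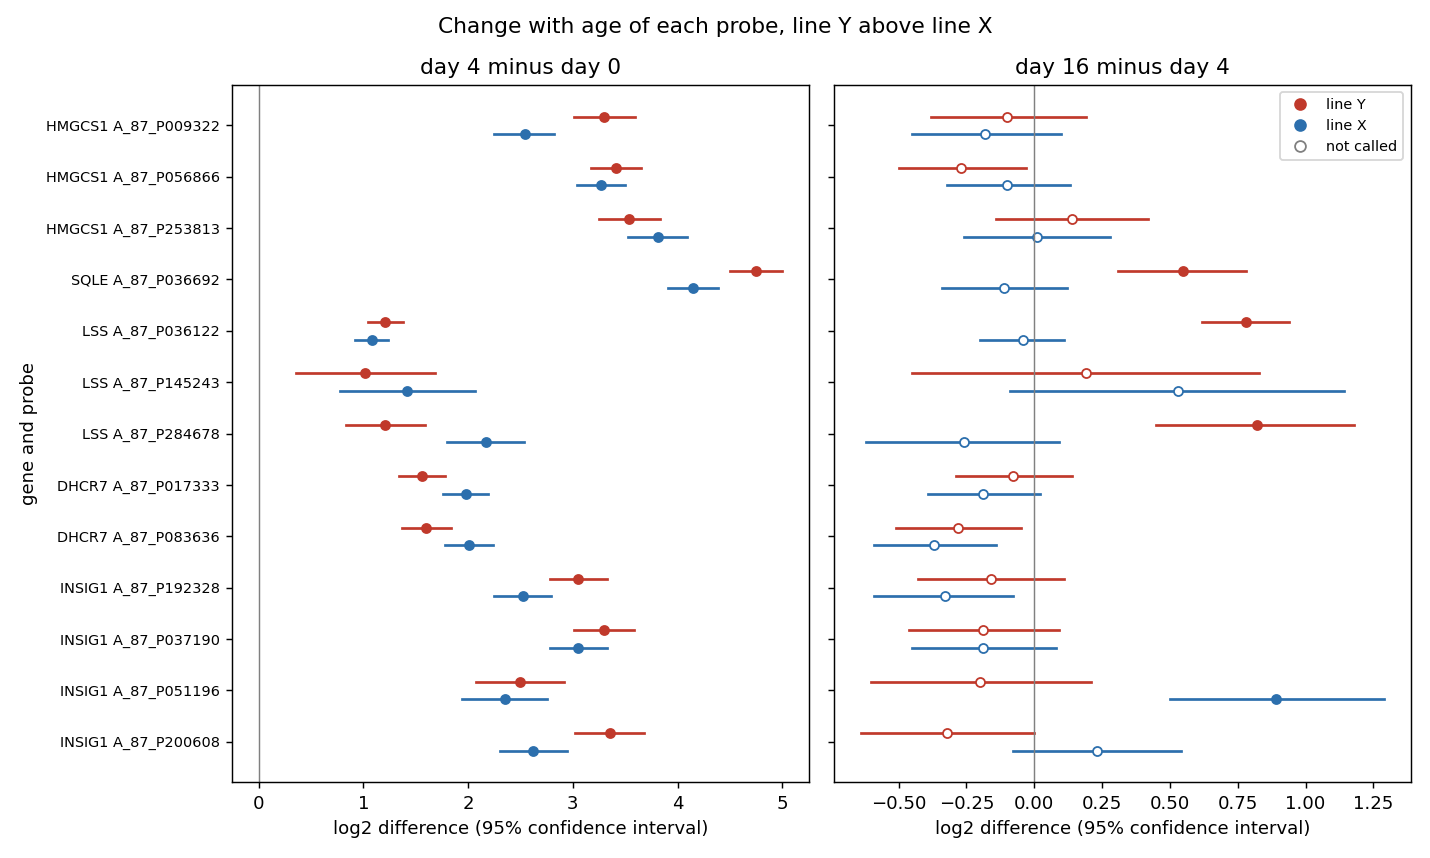
Log2 difference (horizontal axes) with its 95% confidence interval of each of the 13 probes (rows) between days 4 and 0 on the left and between days 16 and 4 on the right, with line Y in red above line X in blue and open circles for probes not called. All 26 differences on the left lie between 1.02 and 4.75, while on the right only the SQLE probe and 2 LSS probes in line Y and 1 INSIG1 probe in line X are called.

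After day 4 the genes changed little in both lines. Between days 4 and 16 the count of probes called higher was 3 of 13 in line Y (13.7% of all probes) and 1 of 13 in line X (14.1% of all probes), and 0 were called lower in either line (16.5% of all probes in line Y and 20.6% in line X). Without the fold threshold, DHCR7 A_87_P083636 was lower in both lines (-0.28, adjusted p = 0.0442, in line Y and -0.37, adjusted p = 0.00495, in line X, limma) and INSIG1 A_87_P192328 in line X (-0.33, adjusted p = 0.0264). In line Y the probes called were those of SQLE (0.55 ± 0.12 SE, adjusted p = 0.000207, limma), LSS A_87_P036122 (0.78 ± 0.08, adjusted p = 7.89e-11) and LSS A_87_P284678 (0.82 ± 0.18, adjusted p = 0.000288). In line X the probe called was INSIG1 A_87_P051196 (0.89 ± 0.19, adjusted p = 0.000151, limma), whose pools lay between 8.87 and 9.67 on day 4 and between 9.83 and 10.75 on day 16, and the other INSIG1 probes differed by -0.33, -0.19 and 0.23 there. Leaving out the 4 pools with high albumin described below raised the count in line X to 3, with 1 probe higher and 2 lower. Over the whole course from day 0 to day 16 all 13 probes were called higher in both lines, by 1.21 to 5.30 in line Y (18.4% of all probes) and by 1.04 to 4.04 in line X (28.1% of all probes), and SQLE reached 39.3-fold in line Y and 16.4-fold in line X.

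Other cell types changed over the same days. The mean log2 intensity of 5 red cell genes out of a list of 13 lay between 11.11 and 12.17 in line Y on day 0, between 14.65 and 15.16 on day 4 and between 12.09 and 13.47 on day 16. In line X the ranges were 10.38 to 11.05, then 14.29 to 14.87, and 11.70 to 13.71. Of their spots 20.4% were saturated, most of them on day 4. All 5 red cell genes were called higher at day 4 than at day 0 in both lines, and 4 of 5 in line Y and 5 of 5 in line X were called lower at day 16 than at day 4, when the synthesis genes stayed high. Of 9 proliferation genes on the array out of 12 listed, 4 in line Y and 7 in line X were called higher at day 4 than at day 0, and 4 in line Y and 6 in line X were called lower at day 16 than at day 4, with mean log2 intensities between 10.36 and 11.34 over all pools. Of 7 smooth muscle genes out of 11 listed, 0 in line Y and 2 in line X were called higher at day 4 and 1 in each line lower, and 6 in each line were called lower at day 16 than at day 4, with mean log2 intensities from 13.19 to 14.64 over all pools. Of all probes, 18.8% in line Y and 26.3% in line X were called higher at day 4 than at day 0. Called in either direction over this interval were 42.1% and 51.9%. From day 4 to day 16, 16.5% and 20.6% were called lower. The part of these cell types in the rise was not tested.

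Of 11 hepatocyte genes listed, 7 were on the array and 4 were kept, with a mean log2 intensity of 7.14 to 10.68 over all pools. Of the 180 spots of these 4 genes, 16 were not well above background, so that low values among them are imprecise. In each line 2 of the 4 were called higher and 1 lower at day 4 than at day 0. Over this interval 18.8% of all probes in line Y and 26.3% in line X were called higher. In either direction it was 42.1% and 51.9%. FGG, a chain of fibrinogen, lay between 3.54 and 4.21 in line Y and between 3.82 and 7.47 in line X on day 0. On day 16 it lay between 9.01 and 10.02 in line Y and between 8.89 and 10.06 in line X. High values in single pools were seen for the albumin gene ALB, which exceeded 12 in 4 pools, 1 each in line Y at days 4 and 16 and in line X at days 0 and 4, where it lay between 12.07 and 13.42, while the other pools had a median of 6.78 and reached from 5.69 to 10.19. Without these 4 pools, a choice made after seeing the data, all 13 probes were still called higher at day 4 than at day 0 in line Y and in line X. Of 11 pancreatic genes, 2 were kept, with a mean between 6.99 and 8.66.

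Further enzymes of the route, taken from lists of other pathway genes, also rose. ACAT2, which starts the route by joining acetyl-CoA, and FDFT1, which makes squalene, were matched in a list of 9 genes of the mevalonate part, and MSMO1, which removes methyl groups after lanosterol, in a list of 8 genes of the steps after squalene. All 8 probes of these 3 genes were called higher at day 4 than at day 0 in line Y (18.8% of all probes) and in line X (26.3% of all probes). Representative probes rose by 3.48 for FDFT1, 3.29 for MSMO1 and 1.61 for ACAT2 in line Y, and by 2.92, 2.92 and 1.72 in line X. From day 4 to day 16, FDFT1 rose again in line Y (0.67, adjusted p = 2.28e-09, limma) and differed by 0.00 in line X, where it was not called, and its second probe was at 0.30 in line Y and not called.

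**Figure D3:**
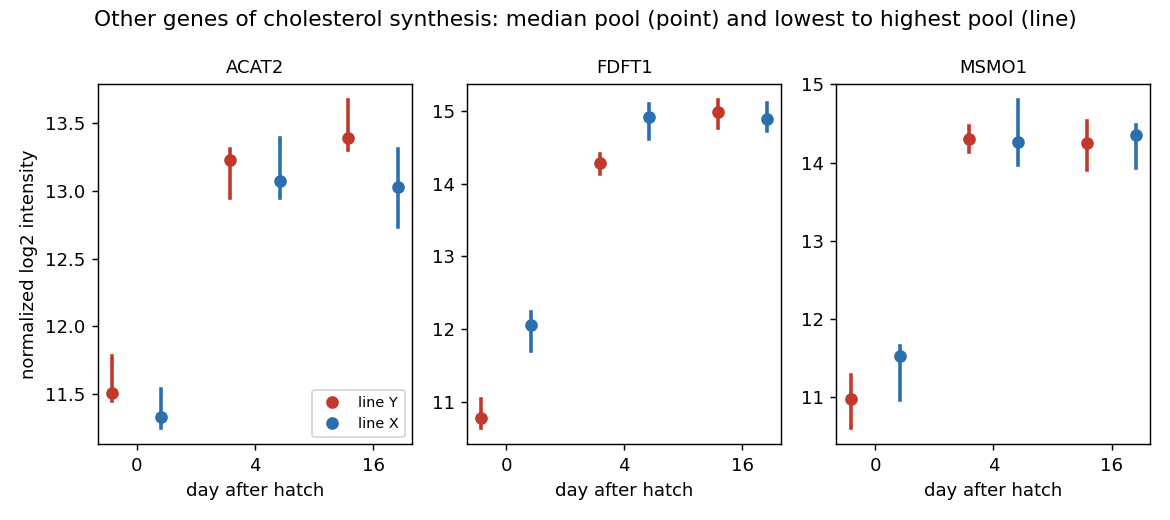
Normalized log2 intensity (vertical axis) of the representative probes of ACAT2, FDFT1 and MSMO1 on days 0, 4 and 16, with the median pool as a point and a line from the lowest to the highest pool, line Y in red left of line X in blue. At day 0 the medians of FDFT1 were 10.78 in line Y and 12.05 in line X, and in each gene days 4 and 16 lie above day 0.

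Most genes measured around the route changed less. Of 15 listed genes of sterol sensing, 7 were measured, and 1 was called higher and 0 lower at day 4 than at day 0 in line Y, against 0 higher and 1 lower in line X. Of all probes, 42.1% in line Y and 51.9% in line X were called in either direction over this interval. SREBF1, which encodes the SREBP of fatty acid synthesis, was the one that rose in line Y (0.62, adjusted p = 0.00693, limma), and MYLIP, a ubiquitin ligase induced by sterols, was the one that fell in line X (-0.54, adjusted p = 0.000504, limma). Of 14 listed genes of uptake and transport, 3 passed the filter, and NPC2, the sterol carrier of the lysosome, and STARD4, a sterol carrier of the cytosol, rose in both lines, NPC2 by 0.75 and 0.97 and STARD4 by 1.45 and 0.44 in lines Y and X, while VLDLR differed by -0.06 and -0.16 and was not called. Of 11 genes of export and lipoprotein assembly, 4 passed, but the brightest probes of APOA1 and APOA4 were saturated on every array of days 0 and 4 and give no difference. APOB, the structural protein of intestinal lipoproteins, fell by 0.51 in line Y and by 0.46 in line X on its brightest probe, while its other probes differed by -0.50 to 0.59 in line Y and by -0.17 to 0.76 in line X. MTTP, which loads lipid onto APOB, differed by -0.03 and 0.04 and was not called. Of 9 genes of oxysterol and bile acid synthesis, 2 passed, and CYP46A1 fell by 0.58 in line Y and by 0.66 in line X, while NR1H4 was not called. NPC1L1, SREBF2, FDPS, MVD and SC5D had no matched probe and were not analysed here.

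Line Y was lower than line X at day 0 for the representative probes of 4 of the 5 genes, but the probes of a gene did not all show this. At day 0, 6 of 13 probes were called lower in line Y (19.1% of all probes), and 8 were called in either direction (38.1% of all probes), 2 of them higher. The median difference was -0.26 against -0.03 over all probes. SQLE was lower by 1.01 on the log2 scale, or 2.02-fold (SE 0.12, n = 7 and 7, adjusted p = 3.22e-09, limma), with no overlap, since the highest pool of line Y was at 8.16 and the lowest of line X at 8.42. LSS A_87_P036122 differed by -0.45 ± 0.08 (adjusted p = 1.13e-05, limma), with pools up to 13.01 in line Y and from 13.10 in line X. HMGCS1 A_87_P009322 differed by -0.86 ± 0.14 (adjusted p = 3.65e-06, limma), and its groups overlapped by 1 pool each, at 9.84 in line Y and 9.82 in line X. INSIG1 A_87_P192328 was at -0.59 ± 0.14 (adjusted p = 0.000356, limma), with pools up to 11.06 in line Y and from 10.97 in line X. DHCR7 A_87_P017333 was at 0.31 ± 0.11 (adjusted p = 0.015, limma), under the fold threshold.

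Among the other probes, the 2 of HMGCS1 differed at day 0 by 0.07 (95% interval -0.17 to 0.31) and -0.26 (-0.55 to 0.03) and were not called. INSIG1 A_87_P037190 and A_87_P200608 were lower in line Y (-0.42, adjusted p = 0.0107, and -0.57, adjusted p = 0.00353, limma), but A_87_P051196 was higher (0.95, adjusted p = 0.000162). LSS A_87_P145243 was higher by 0.80 (adjusted p = 0.0364, limma), and A_87_P284678 was at 0.39 (adjusted p = 0.0731). The call of LSS A_87_P145243 was lost in 6 of 45 fits without 1 pool and, at 0.41, with scaling to the 75th percentile, and that of INSIG1 A_87_P037190 was lost in 2 of 45 fits. Averaged over its probes, HMGCS1 differed by -0.35 (adjusted p = 0.00684, limma, under the fold threshold), INSIG1 by -0.16 (adjusted p = 0.207) and LSS by 0.25 (adjusted p = 0.162), none of them called, so that the line difference of these genes depends on the probe read. DHCR7 A_87_P083636 was at 0.00. The day 0 line difference of SQLE could not be set beside its second probe, which was not well above background on any array of that day. FDFT1, the gene before SQLE in the route, was lower in line Y by 1.18 (adjusted p = 2.99e-16, limma), and its second probe was at -0.23 and not called, while all 4 MSMO1 probes were called lower, at -0.64 to -0.38. The 2 ACAT2 probes were at 0.19 and 0.31 and were not called. STARD4 was lower by 1.40 (adjusted p = 2.79e-10, limma), with pools from 10.46 to 11.22 in line Y and from 12.13 to 12.29 in line X.

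**Figure D4:**
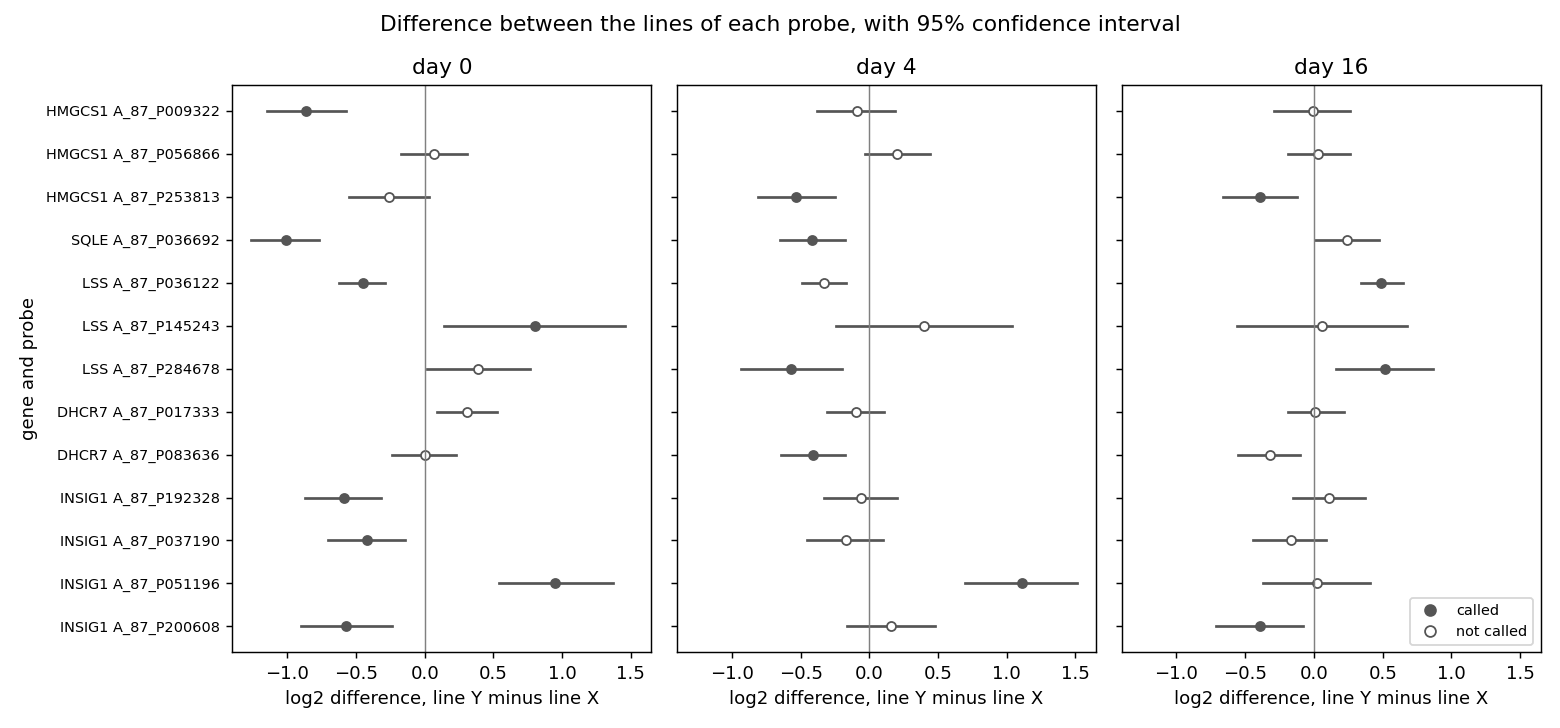
Log2 difference of line Y minus line X (horizontal axes) with its 95% confidence interval for each of the 13 probes (rows) on days 0, 4 and 16, filled circles being called. SQLE moves from -1.01 at day 0 over -0.42 at day 4 to 0.24 at day 16, while probes of HMGCS1, LSS and INSIG1 lie on both sides of 0 at day 0.

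Cell type markers were also compared between the lines at day 0, when 38.1% of all probes were called in either direction and 19.1% lower. Of the 5 red cell genes, 4 were called higher in line Y and 0 lower, with a median difference of 0.65. Of 9 proliferation genes 3 were called higher, and of 7 smooth muscle genes 1 was called higher, with medians of 0.17 and 0.23. Of the 4 hepatocyte genes 0 were called higher and 1 lower, with a median of -0.75. Of the 10 enterocyte genes 1 was called higher and 0 lower, with a median of 0, and 54% of their spots were saturated. Of all probes called at day 0, 49.9% were higher in line Y. The red cell genes were called higher more often than all probes were called in either direction, on few genes. The other counts are small or near the shares over all probes. The part of these cell types in the line difference was not tested.

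At day 4 fewer probes differed between the lines, with 1 of 13 probes called higher in line Y (12.1% of all probes) and 4 lower (11.3% of all probes). SQLE was still lower in line Y (-0.42 ± 0.12 SE, adjusted p = 0.00465, limma), a call lost when pool 11 of line X was left out, at -0.37. HMGCS1 A_87_P253813 was at -0.53 (adjusted p = 0.00235, limma), LSS A_87_P284678 at -0.57 (adjusted p = 0.0121) and DHCR7 A_87_P083636 at -0.41 (adjusted p = 0.00384, limma), the last no longer called when pool 11 of line X or pool 15 of line Y was left out. The LSS probe was at -0.46 and not called with scaling to the 75th percentile. The other probes of these genes were not called, at -0.09 and 0.20 for HMGCS1, -0.33 and 0.40 for LSS and -0.10 for DHCR7. Averaged over their probes, HMGCS1 was at -0.14, LSS at -0.17 and DHCR7 at -0.26, none of them called. INSIG1 A_87_P051196 was again higher in line Y (1.11 ± 0.20, adjusted p = 2.09e-05, limma), with pools from 9.53 to 10.86 in line Y and from 8.87 to 9.67 in line X, although the other INSIG1 probes lay between -0.17 and 0.16. FDFT1 was lower by 0.63 (adjusted p = 1.55e-08, limma) on 1 probe and by 0.42 on the second, both called, while 0 of 4 MSMO1 probes (-0.37 to -0.02) and 0 of 2 ACAT2 probes (-0.01 and 0.07) were.

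At day 16 there were 2 of 13 probes called higher (18.2% of all probes) and 2 lower in line Y (15.5% of all probes). LSS was now higher in line Y, by 0.49 ± 0.08 SE on A_87_P036122 (adjusted p = 9.96e-07, limma) and by 0.52 ± 0.18 on A_87_P284678 (adjusted p = 0.0126), while its probe A_87_P145243 differed by 0.06 (95% interval -0.56 to 0.68). Scaled to the 75th percentile instead, the first of these stood at 0.37 and under the fold threshold. Averaged over its probes, LSS differed by 0.36 (adjusted p = 0.0309, limma), also under the fold threshold and not called. HMGCS1 A_87_P253813 and INSIG1 A_87_P200608 were both lower by 0.39 (adjusted p = 0.0134 and 0.0306, limma), calls lost in 7 and in 5 of the 45 fits without 1 pool. That of INSIG1 A_87_P200608 was also lost in a fit of the 2 compared groups alone (adjusted p = 0.105, limma) and without the 4 pools of high albumin (-0.36, adjusted p = 0.0683). SQLE differed by 0.24 (95% interval 0.01 to 0.47, adjusted p = 0.0736, limma). Its second probe, fitted without the filter on dim probes, was at -0.27 at day 4 and at -0.41 at day 16. Neither was called (adjusted p = 0.497 and 0.222, limma), and at day 16 the 2 SQLE probes differed in sign. Representative probes of HMGCS1, DHCR7 and INSIG1 were at -0.01, 0.01 and 0.11, with intervals within -0.29 and 0.37.

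The rise itself was compared between the lines as an interaction, that is, the change in line Y minus the change in line X. From day 0 to day 4, 4 of 13 probes were called with a positive interaction, a larger rise in line Y (8.63% of all probes). A negative one, a larger rise in line X, was called for 2 (13.1% of all probes). SQLE rose more in line Y by 0.60 ± 0.17 SE (adjusted p = 0.00874, limma), and so did HMGCS1 A_87_P009322 by 0.76 (adjusted p = 0.00516) and INSIG1 A_87_P192328 by 0.53 (adjusted p = 0.0373), while DHCR7 A_87_P017333 rose less by 0.41 (adjusted p = 0.0409). The interaction of LSS A_87_P284678 was negative as well, at -0.96 (adjusted p = 0.0065, limma). The other HMGCS1 probes had interactions of 0.13 and -0.27 and were not called. On the mean of their probes HMGCS1 was at 0.21 (adjusted p = 0.323, limma) and LSS at -0.41 (0.143), neither called. The means of INSIG1 (0.42, adjusted p = 0.0336, limma) and DHCR7 (-0.41, 0.0237) were called. With the pool number as a replicate block DHCR7 A_87_P017333 was at -0.40 (adjusted p = 0.0526, limma). Without the filter on dim probes the adjusted p of limma was 0.0587 for this probe and 0.0531 for INSIG1 A_87_P192328, none of them called. When single pools were left out, the call was lost in 9 of 45 fits for INSIG1 and in 17 of 45 for DHCR7, and without the 4 pools of high albumin INSIG1 was at 0.46 (adjusted p = 0.0879, limma). With the signal scaled to the 75th percentile, the interactions of SQLE (0.37), INSIG1 (0.35) and DHCR7 (-0.32) were no longer called. From day 4 to day 16 the interaction was called for 3 probes higher (20.1% of all probes) and 2 lower (14.8%), and SQLE (0.66, adjusted p = 0.00132, limma) and LSS A_87_P036122 (0.82, adjusted p = 1.07e-07) rose more in line Y. LSS A_87_P284678 was at 1.08 (adjusted p = 0.000627, limma). The 2 lower were INSIG1 A_87_P051196 (-1.09, adjusted p = 0.00161, limma) and A_87_P200608 (-0.55, adjusted p = 0.0437). Up to day 4 the interaction of LSS A_87_P036122 was 0.13 and not called. Over the whole course SQLE rose 2.39-fold more in line Y than in line X (1.26 ± 0.17, adjusted p = 4.8e-08), and 4 probes were called higher (23.8% of all probes) and 1 lower (20.8%). The second SQLE probe, fitted without the filter on dim probes, did not show this. Its interaction was -0.14 from day 4 to day 16 and -0.30 over the whole course (adjusted p = 0.813 and 0.579, limma). Its day 0 signal was not well above background, so the value over the whole course is imprecise. On the mean of their probes the interactions over the whole course were at 0.23 for HMGCS1, 0.11 for LSS and 0.05 for INSIG1, none of them called, against 0.84, 0.95 and 0.70 on the representative probes.

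The order of the 6 groups can be read for each gene from the medians, as a description. For SQLE it ran from line Y at day 0 and line X at day 0 to line Y at day 4, line X at day 16, line X at day 4 and line Y at day 16. The first 3 of these did not overlap with each other, each later group overlapped with its neighbours, and line Y at day 16 lay wholly above line Y at day 4. For LSS the order was line Y at day 0, line X at day 0, line Y at day 4, line X at day 16, line X at day 4 and line Y at day 16, with overlap between neighbours from line Y at day 4 onwards. For HMGCS1 and INSIG1 line Y at day 0 came first and line X at day 0 second, and for DHCR7 line X at day 0 came first and line Y at day 0 second, with overlap between the first and the second in all 3 genes. The ranges of the 4 later groups overlapped in each of these 3 genes.

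Pools with a high value of 1 gene tended to be high in some of the others. Over the 45 arrays the 10 pairs of representative probes correlated at r = 0.84 to 0.987, with the differences between groups included. After the mean of each group was taken off, r ranged from -0.0301 to 0.817 and was above 0 in 9 of the 10 pairs. The closest pair was HMGCS1 and SQLE, at 0.817, followed by DHCR7 and SQLE at 0.601 and HMGCS1 and DHCR7 at 0.501, and the pair without a positive value was DHCR7 and LSS. Probes compared in this way share their arrays, so these values describe the pools and were not tested. Pool 10 of line X at day 4 was lower than its 7 companions in 6 of 8 genes, the 5 members and ACAT2, FDFT1 and MSMO1, at 12.02 against 12.62 to 13.13 for HMGCS1 and at 12.44 against 12.93 to 13.30 for SQLE, the exceptions being ACAT2 and INSIG1.

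The mean course of the 5 genes over the 45 arrays was compared with that of 3735 other genes with a symbol. Among the 8 most like it were MSMO1 (r = 0.990), CD7 (0.985), FDFT1 (0.985), CDKN1A (0.978), THRSP (0.972) and FABP3 (0.969). After the group means were taken off, r was 0.612 for MSMO1 and 0.477 for FDFT1, against 0.273 for CD7, 0.126 for CDKN1A, -0.195 for THRSP and -0.162 for FABP3. MSMO1 and FDFT1, the enzymes of cholesterol synthesis among these 6 genes, therefore also had the higher values from pool to pool within groups, as a description and without a test.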

How the data were processed

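RNA of jejunal tissue was hybridised by the authors to 45 Agilent one-colour arrays of the chicken transcriptome, each from 1 pool of 10 birds. The scanner intensities were deposited by the authors as median foreground and local background of each spot, next to a table of log2 values that the authors computed with limma in R 3.0.2. The log2 values used here were recomputed from the deposited intensities by the same steps, namely a normexp correction of background (offset 1), normalization by quantiles and averaging of the spots of a probe. They differed from the deposited table by at most 5e-09. Spots flagged as outliers, 0.0261% of all, were kept in this computation. Dim probes were removed with a limit set on each array at 1.1 times the log2 value of its brightest dark corner spot. Probes over the limit on all arrays of some group stayed, 25527 of 43603.

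A probe was given a gene symbol only through its RefSeq accession, with names from the annotation of assembly GRCg7b, which named 10458 probes of 4655 genes, of which 7824 probes of 3740 genes were kept. Probes were not matched to the genome, and no probe sequences are printed. All 6 groups were fitted in 1 linear model across all kept probes with limma 3.58.1 in R 4.3.3 (lmFit and eBayes), with Benjamini-Hochberg adjustment over all kept probes. Figures were drawn with matplotlib 3.10.9 in Python 3.11.15. On simulated data the fit was checked for the recovery of known changes. Genes named in the text are the members, the matched genes of the pathway lists, the marker lists and the 8 genes with the most similar course. APOB probes, STARD4, pool 10 of line X on day 4 and the pools with high albumin signal were singled out after their values were seen.

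Some genes of these lists are not reported here. The members and lists were chosen with earlier results of these data known. For the line Y pools of day 0 the age label and the title disagree, and the age label was followed. The paper's supplement gives the same age for these pool numbers. Pool numbers are shared by the lines, but nothing says that they mark a shared source, and they were not used as a pairing. No 2 arrays held identical values. The number of arrays limits the precision. Alternatives were another background offset, scaling to the 75th percentile, the deposited table, other filters, fits of the compared groups only, no fold threshold, the mean over the probes of a gene, the pool number as a block and leaving out each pool.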

Additional observations from a re-analysis of the deposited data

Results flagged for a closer look

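Single pools stood apart from their group in 10 of the 78 combinations of a member probe and a group, judged by the gap to the nearest other pool relative to the range of the group, and chance alone would mark about 1 in 20 groups. Pool 10 of line X at day 4 was low for 3 probes, HMGCS1 A_87_P009322 (12.02, group median 12.98), SQLE A_87_P036692 (12.44, median 12.97) and DHCR7 A_87_P017333 (10.41, median 10.88). In line Y at day 16, pool 17 was low for INSIG1 A_87_P037190 (11.34, median 12.07) and pool 18 for INSIG1 A_87_P192328 (12.84, median 13.54). In line X at day 0, pool 5 was low for DHCR7 A_87_P083636 (6.54, median 7.11), pool 2 for LSS A_87_P145243 (8.80, median 9.89) and pool 3 for INSIG1 A_87_P200608 (9.81, median 10.25), while pool 6 was high for INSIG1 A_87_P192328 (11.54, median 11.10). Pool 16 of line X at day 4 was low for LSS A_87_P145243 (9.96, median 11.45), and it is 1 of the 4 pools with high albumin signal, as is pool 17 of line Y at day 16.

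The change with age differed between the lines in 16 of 39 interaction tests of the 13 probes. From day 0 to day 4 these were 6 of the 13, against 21.7% of all probes, from day 4 to day 16 they were 5, against 35.0%, and over the whole course 5, against 44.5%, so that the counts are near the shares over all probes in the later comparisons. Values are the change in line Y minus that in line X on the log2 scale, with adjusted p from limma over all probes. From day 0 to day 4 it was 0.76 for HMGCS1 A_87_P009322 (adjusted p = 0.00516), 0.60 for SQLE A_87_P036692 (0.00874), 0.53 for INSIG1 A_87_P192328 (0.0373), 0.73 for INSIG1 A_87_P200608 (0.0176), -0.41 for DHCR7 A_87_P017333 (0.0409) and -0.96 for LSS A_87_P284678 (0.0065). From day 4 to day 16 it was 0.82 for LSS A_87_P036122 (adjusted p = 1.07e-07, limma), 1.08 for LSS A_87_P284678 (0.000627), 0.66 for SQLE A_87_P036692 (0.00132), -1.09 for INSIG1 A_87_P051196 (0.00161) and -0.55 for INSIG1 A_87_P200608 (0.0437). Over the whole course it was 0.84 for HMGCS1 A_87_P009322 (adjusted p = 0.00047, limma), 0.95 for LSS A_87_P036122 (3.66e-09), 1.26 for SQLE A_87_P036692 (4.8e-08), 0.70 for INSIG1 A_87_P192328 (0.0018) and -0.94 for INSIG1 A_87_P051196 (0.00548). Over the whole course the probes of HMGCS1, LSS and INSIG1 differed among themselves in sign. The mean of the probes was there at 0.23, 0.11 and 0.05 for these genes and not called. From day 0 to day 4 the probes of HMGCS1 and of LSS also differed in sign, while those of INSIG1 were all positive, at 0.15 to 0.73. The dim second SQLE probe, fitted without the filter, had negative interactions that were not called. In addition, slide and group cannot be told apart in any of these values.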

How the results depend on the processing

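All 13 probes were called higher at days 4 and 16 than at day 0 in both lines when any 1 pool was left out, with the 75th percentile scaling, with an offset of 50 and without the 4 pools of high albumin signal, an alternative chosen after seeing the data. Under the filter passed on all arrays, 9 member probes were left, and all 9 were called. The count of probes called in line X between days 4 and 16, which was 1, became 2 with the 75th percentile scaling, 0 under the filter passed on all arrays, 3 with no fold threshold and 3 without the albumin pools. That filter also lowered the line counts, from 5 to 1 on day 4 and from 4 to 2 on day 16, and the interaction count between days 4 and 16 from 5 to 3, with fewer probes tested by construction. Leaving out 1 pool gave counts of 7 to 9 for the line difference on day 0, 3 to 5 on day 4 and 2 to 4 on day 16, of 3 to 4 in line Y and 1 to 3 in line X between days 4 and 16, and of 4 to 7, 4 to 5 and 5 to 6 for the interactions from day 0 to day 4, from day 4 to day 16 and over the whole course. The lowest count at day 4 came without pool 11 of line X and the lowest at day 16 without pool 21 of line X, and the highest count of 3 in line X came without pool 16 of day 4. Averaged over its probes, LSS at day 0 was at 0.25 in line Y minus line X, against -0.45 on its representative probe, and the cause was not tested. With the pool number as a replicate block, the line counts were 8, 5 and 4 on days 0, 4 and 16 and the interaction counts were 5, 5 and 5, the DHCR7 A_87_P017333 interaction (-0.40) being the only one of 78 calls to change. Same-numbered pools of the lines correlated above 0.1 in their deviations from the group means in 4 of 7 pairs on day 0, in 7 of 7 on day 4 and in 3 of 8 on day 16. That interaction was also lost in 17 of the 45 fits without 1 pool. Mean foreground intensity as an alternative was not run, since that column was not analysed here.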
